A study of Macaca mulatta with 9 samples.

Results

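Metallothioneins and genes of zinc handling were read in the ovaries of 9 rhesus monkeys. The genes were chosen by symbol in the array annotation: every metallothionein 1 isoform, MT2A, MT3, the factor MTF1, the exporter SLC30A1 and the importers SLC39A8 and SLC39A14. These symbols stand for 8 genes, of which 7 had a probe set, and SLC30A1 had none. They carried 15 probe sets of the 52766 tested, with 4 for MT1X, 5 for SLC39A8, 2 for MTF1 and 1 each for MT1E, MT2A, MT3 and SLC39A14. A probe set is a group of short probes on the array designed to read 1 transcript, though some may bind several. No other metallothionein 1 isoform had a symbol of its own among the probe sets.

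The study asked how gene expression in the ovary differs with age, and frozen tissue from 1 ovary of each of 9 healthy female monkeys was run on 1 array each. The 3 young monkeys were 3 to 4 years old, had normal cycles and had never bred. The 3 middle-aged monkeys were 7 to 8 years old and of good reproductive capacity, and the 3 old monkeys were 18 to 19 years old and had lost that capacity. Ovaries of the first 2 groups were taken near proestrus, a stage not given for the old monkeys, so age and stage cannot be told apart. All monkeys were perfused with cold buffer before collection, and none was treated. Whole tissue was measured, in which fewer cells of a type and less RNA per cell cannot be told apart.

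Metallothioneins are small, cysteine-rich proteins that bind zinc and copper and take up reactive oxygen. MTF1 is the zinc-sensing factor that switches their genes on, and glucocorticoids, interleukin 6 signalling and oxidative stress raise their transcripts in many tissues. Zinc enters the cytosol through transporters of the SLC39 (ZIP) family and leaves it through those of the SLC30 (ZnT) family, and in the ovary zinc is best known for its part in oocyte meiosis. MT1 and MT2 isoforms are found in most tissues, whereas MT3 is known mainly from the brain.

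Values are intensities on a linear scale as deposited, and the arrays' medians lay between 24.2 and 25.8. Differences are log2 fold changes from limma, with 1 mean per age group, and a probe set was called when the Benjamini-Hochberg adjusted p over all probe sets was under 0.05 and the fold at least 1.5. Spike-in controls, which are added to the RNA in fixed amounts, were brighter on young array 3 and old array 3 (by 0.59 and 0.76 on the log2 scale, against the mean of 9 arrays) than on the other 7. Old array 1 had the lowest median correlation with the other arrays, 0.957. ACTB, the reference gene of the study, lay between 8443 and 10972. The tissue held the marker genes of an ovary, and the summed intensity of its oocyte markers was 373 to 541 in old ovaries and 1124 to 6033 in the other 6. ZP4 of that list went the other way, at 222 to 391 in old ovaries and 137 to 194 in the others, and made up most of the sum in old ovaries.

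None of the 15 probe sets was called in any of the 3 comparisons. In old versus young ovaries limma called 0.155% of all probe sets, in old versus middle-aged 0.0341% and in middle-aged versus young 0.0019%, rates at which less than 1 of 15 probe sets would be called. At an unadjusted p under 0.05, 3 members were higher and 1 lower in old than in young ovaries, against 13.5% of all probe sets. For old versus middle-aged these counts were 2 and 1, against 7.87%, and for middle-aged versus young 0 and 0, against 3.18%. The median log2 fold change of the 15 was 0.14, -0.01 and 0.07 in the same order of comparisons, and that of all probe sets was 0.01, 0.02 and -0.01.

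Groups of 3 can also be compared by whether their arrays overlap. In old versus young ovaries, 2 members were higher without overlap, against 7.38% of all probe sets, and 1 was lower, against 9.46%. In old versus middle-aged ovaries, 2 were higher, against 5.33%, and 0 lower, against 6.49%. In middle-aged versus young ovaries, 4 were higher, against 4.43%, and 0 lower, against 4.35%. These 4 belonged to MT1E and MT1X, and 3 of them were MT1X probe sets that read much the same signal.

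MT2A, a widely expressed metallothionein, had the smallest p of the members. Its intensity was 2511, 1263 and 2163 in young ovaries, 2485, 2097 and 2200 in middle-aged ovaries and 10528, 9932 and 5006 in old ovaries (MmugDNA.5794.1.S1_at). All 3 old ovaries stood above all 6 others, with 5006 as the lowest old value and 2511 as the highest of the rest, whereas young and middle-aged ovaries overlapped. The means were 8489 ± 3031 (SD, n = 3) in old, 2261 ± 201 in middle-aged and 1979 ± 644 in young ovaries. Old versus young ovaries had a log2 fold change of 2.08 (SE 0.33, 95% interval 1.33 to 2.84), or 4.24-fold, with a limma adjusted p of 0.0729, which missed the threshold, and MT2A ranked 137 of all probe sets by p. Against middle-aged ovaries it was 1.84 (3.57-fold, limma adjusted p = 0.251). Middle-aged and young ovaries differed by 0.25, with an interval of -0.51 to 1.00.

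**Figure D1:**
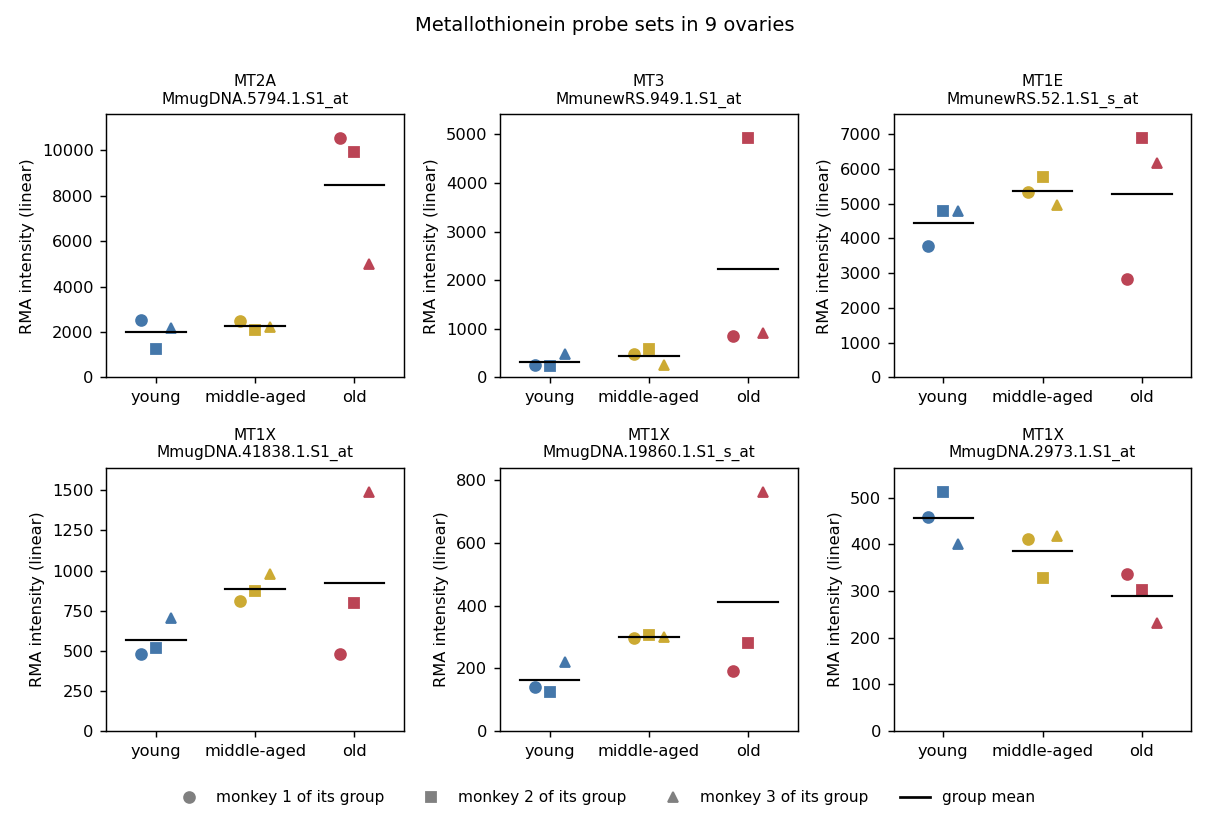
RMA intensity on a linear scale (vertical axes, each from 0) of 6 metallothionein probe sets in young, middle-aged and old ovaries. Each symbol is 1 monkey, its shape the number within the age group, and the black line is the group mean of 3 monkeys. The 3 old monkeys lie above the other 6 for MT2A and MT3, and the mean of MmugDNA.2973.1.S1_at is lowest in old monkeys. The linear means of the other MT1X probe sets shown are highest in old monkeys through monkey 3. For these, old monkeys 1 and 2 lie below all middle-aged ones. Old monkey 1 is lowest of all 9 for MT1E at 2823.

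The MT2A call turned on 1 array. Without old array 3, the lowest of the old ovaries, the log2 fold change of old versus young was 2.43 and the limma adjusted p 0.0304, past the threshold. Over all 21 alternatives the fold change lay between 1.79 and 2.52 and the adjusted p between 0.0304 and 0.226, and no other alternative called it. Without old array 1, the array least like the rest, the fold change was 1.89 (limma adjusted p = 0.117). With the 3 arrays numbered 3 left out it was 2.52 (limma adjusted p = 0.157).

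MT3, also called growth inhibitory factor, was the other member for which the old ovaries did not overlap the rest. It read 265, 240 and 476 in young ovaries, 486, 578 and 257 in middle-aged ovaries and 853, 4922 and 918 in old ovaries (MmunewRS.949.1.S1_at). Old ovary 2 stood far above the other old ovaries, which were themselves above all 6 younger ones. In limma the log2 fold change was 2.33 (SE 0.66, interval 0.82 to 3.84, limma adjusted p = 0.203) against young and 1.91 (SE 0.66, limma adjusted p = 0.559) against middle-aged ovaries. Without old array 2 these were smaller, at 1.5 and 1.09 (limma adjusted p = 0.169 and 0.451). The ovary with the most MT3 was thus not the ovary with the most MT2A, which was old ovary 1.

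MT1E, the brightest metallothionein probe set, showed no such separation. Its intensity was 3773, 4794 and 4791 in young ovaries, 5328, 5771 and 4977 in middle-aged ovaries and 2823, 6884 and 6165 in old ovaries (MmunewRS.52.1.S1_s_at). Old ovaries held both the lowest and the highest values, and the 3 middle-aged ovaries lay narrowly above the young ones. Limma gave log2 fold changes of 0.16 (interval -0.54 to 0.85) for old versus young, -0.12 (interval -0.82 to 0.58) for old versus middle-aged and 0.27 (interval -0.43 to 0.97) for middle-aged versus young. Leaving out old array 1 moved the first to 0.56 (limma adjusted p = 0.204) and leaving out old array 2 to -0.08 (limma adjusted p = 0.939).

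The difference between metallothioneins was tested on the log2 ratio of their probe sets within each array, with an exact two-sided permutation test of 3 arrays against 3, which has 20 labelings and cannot go below 0.1. The 8 tests were chosen after the values had been seen. The log2 fold change of MT2A exceeded that of MT1E by 1.93 in old versus young and by 1.96 in old versus middle-aged ovaries, each with the smallest p the design allows, 0.1 (0.2 adjusted over the 8 tests). MT3 exceeded MT1E by 2.17 and 2.03, with the same p. Between MT3 and MT2A the difference was 0.25 and 0.08, with an exact permutation p of 1 for both.

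Each of the 4 MT1X probe sets is annotated to the same gene, a zinc-binding MT1 isoform, but they did not read alike. The brightest gave 477, 515 and 705 in young ovaries, 807, 870 and 977 in middle-aged ovaries and 479, 797 and 1491 in old ovaries (MmugDNA.41838.1.S1_at). Middle-aged ovaries stood above all young ones, and the old ovaries were spread over the whole range, from the level of the lowest young ovary to the highest value of all. Its log2 fold change was 0.57 (interval -0.26 to 1.4) for old versus young, -0.09 (interval -0.92 to 0.74) for old versus middle-aged and 0.66 (interval -0.17 to 1.49) for middle-aged versus young. The first of these was 0.97 without old array 1 and 0.15 without old array 3 (limma adjusted p = 0.235 and 0.846). Its companion MmugDNA.41838.1.S1_x_at read 472 to 709 in young, 805 to 950 in middle-aged and 561 to 1434 in old ovaries.

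The third, MmugDNA.19860.1.S1_s_at, followed nearly the same order of arrays, at 139, 125 and 221 in young, 295, 308 and 301 in middle-aged and 192, 280 and 764 in old ovaries. Its log2 fold change was 1.14 (interval 0.10 to 2.18, limma adjusted p = 0.331) for old versus young, and 0.57 (limma adjusted p = 0.401) without old array 3, which held the 764. For middle-aged versus young it was 0.94 (interval -0.10 to 1.98).

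The fourth, MmugDNA.2973.1.S1_at, went the other way in old versus young ovaries. It read 459, 513 and 401 in young ovaries, 412, 329 and 418 in middle-aged ovaries and 336, 302 and 232 in old ovaries. Every old ovary was below every young one, and the old ovary that was highest for the other MT1X probe sets was lowest for this one. Limma gave a log2 fold change of -0.67 (SE 0.17, interval -1.07 to -0.27, limma adjusted p = 0.174) for old versus young and -0.42 (limma adjusted p = 0.618) for old versus middle-aged. The difference from the brightest MT1X probe set was 1.24 in old versus young ovaries, with an exact permutation p of 0.2. In old versus middle-aged ovaries, where both were negative, it was 0.33, with an exact permutation p of 0.8. MT1 isoforms are nearly identical in sequence, and suffixes _s_at and _x_at mark probe sets that may bind several transcripts, so a value for MT1E or MT1X cannot be assigned to that isoform alone.

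**Figure D2:**
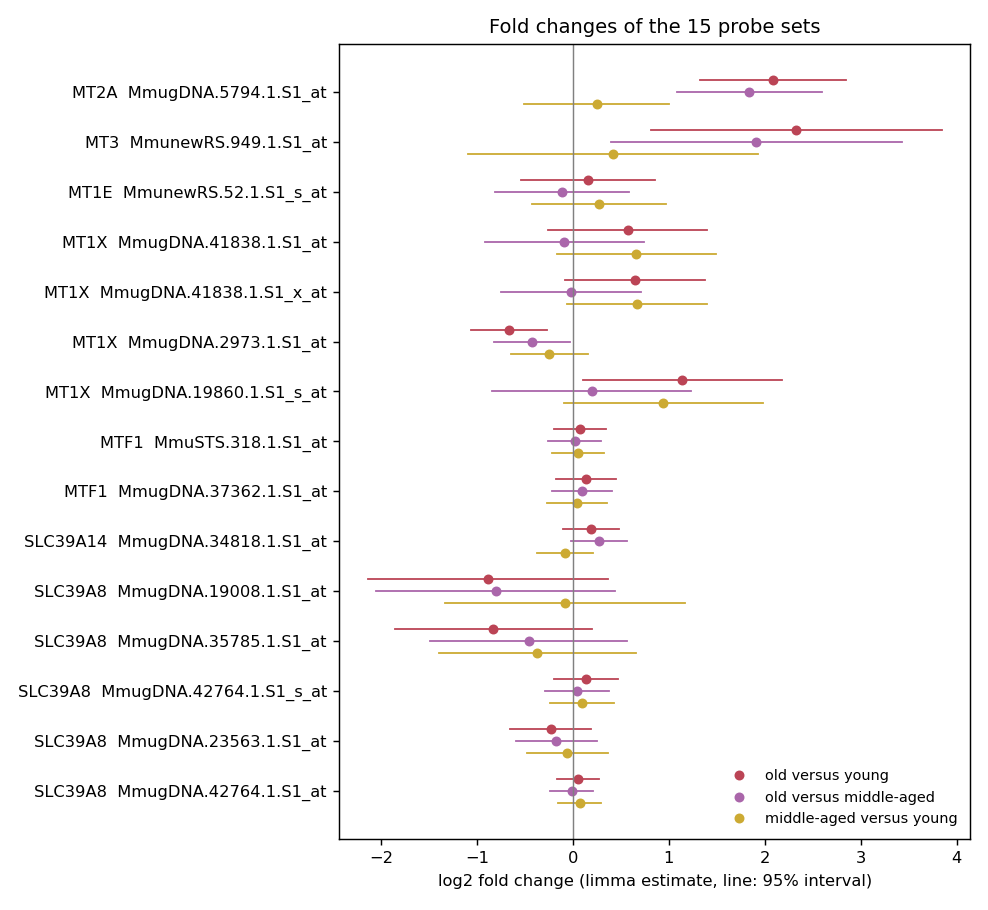
Log2 fold changes of all 15 probe sets from limma (horizontal axis) for old versus young, old versus middle-aged and middle-aged versus young ovaries, with 95% intervals as lines and 3 ovaries per group. MT2A and MT3 lie near 2 in both comparisons with old ovaries, MT1X probe sets lie on both sides of 0, and the MTF1 intervals for old versus young stay between -0.20 and 0.45.

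The RefSeq table of the rhesus genome places MT3, MT2A, MT1E and MT1X in 1 run of 23 genes that starts with MT4, and 9 more probe sets carry the names of neighbours in it. None was called. MT4, a metallothionein of stratified epithelia, was dim in every ovary at 10.2 to 19.0. The brightest neighbour, LOC709619, read 1628 to 2310 in all 9 ovaries with its brightest probe set, and had a log2 fold change of 0.19 (interval -0.11 to 0.50) for old versus young. LOC702286 was 22.2 to 31.8 in young, 22.0 to 77.0 in middle-aged and 32.5 to 110 in old ovaries, with 0.97 (interval -0.34 to 2.29). The old ovaries did not overlap the young for LOC702286, but its interval included 0. Of the 4 LOC709619 probe sets, a dimmer one (MmugDNA.31832.1.S1_at) was also higher in old than in young ovaries without overlap, at 60.3 to 74.8 against 50.5 to 55.5, with 0.38 (interval 0.11 to 0.65, limma adjusted p = 0.234).

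MTF1 transcript differed little between ages. MmuSTS.318.1.S1_at read 102, 111 and 117 in young ovaries, 99.4, 116 and 129 in middle-aged ovaries and 116, 115 and 115 in old ovaries. The old ovaries lay inside the range of the middle-aged ones, and the log2 fold change of old versus young was 0.07 (interval -0.20 to 0.34). The other probe set, MmugDNA.37362.1.S1_at, lay between 73.5 and 99.7 over all 9 ovaries and gave 0.14 (interval -0.18 to 0.45). Both intervals leave out a 1.5-fold change in either direction. They bear on the transcript only, since MTF1 is known to be controlled by zinc binding and by its place in the cell.

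SLC39A14 (ZIP14), an importer of zinc, manganese and iron, was dim. It read 13.1, 13.9 and 13.5 in young ovaries, 13.9, 10.9 and 13.7 in middle-aged ovaries and 15.5, 13.9 and 16.8 in old ovaries, at the 36.0th percentile of brightness. Values of all 3 groups overlapped, and the log2 fold change was 0.19 (interval -0.11 to 0.48) for old versus young and 0.27 (interval -0.02 to 0.57) for old versus middle-aged. Detection calls were not used here, so whether the transcript was above background is not known.

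SLC39A8 (ZIP8), which carries zinc and manganese into cells, varied more between monkeys than between ages. Its brightest probe set gave 362, 421 and 163 in young ovaries, 519, 308 and 131 in middle-aged ovaries and 241, 125 and 130 in old ovaries (MmugDNA.19008.1.S1_at). Each group held at least 1 ovary at or below 163, and the groups overlapped. Old ovaries had a log2 fold change of -0.89 (SE 0.55, interval -2.13 to 0.36, limma adjusted p = 0.52) against young and -0.80 (interval -2.05 to 0.44) against middle-aged ovaries.

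The other 4 probe sets of SLC39A8 were dimmer. MmugDNA.35785.1.S1_at read 22.1 to 72.8 and MmugDNA.23563.1.S1_at 13.1 to 20.5, with -0.83 (interval -1.85 to 0.20) and -0.23 (interval -0.65 to 0.19) for old versus young. MmugDNA.42764.1.S1_s_at read 29.6 to 41.6 and its companion MmugDNA.42764.1.S1_at about 6 to 7 in every ovary, and their fold changes were 0.14 and 0.06. The first 3 probe sets were thus negative and the last 2 positive, and each of the 5 intervals included 0.

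**Figure D3:**
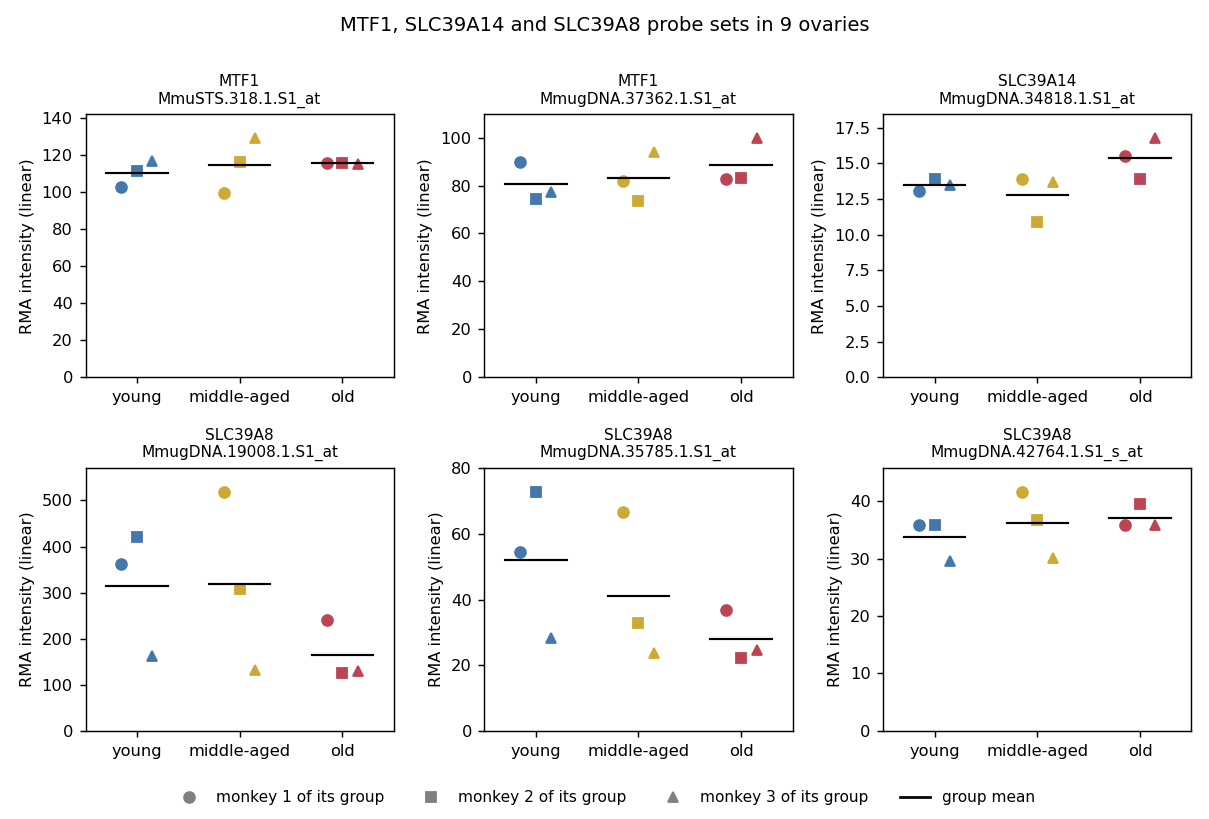
RMA intensity on a linear scale (vertical axes, each from 0) of both MTF1 probe sets, SLC39A14 and 3 of the 5 SLC39A8 probe sets in young, middle-aged and old ovaries, with 1 symbol per monkey and the group mean of 3 as a line. MTF1 is level across ages, and the 2 SLC39A8 probe sets with the largest spread are lowest in monkeys 2 and 3 of the old group and monkey 3 of the other groups.

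An ovary is a mixture of cell types, and the share of each in a cut piece can differ from piece to piece. The levels of 7 genes, with both kinds of MT1X probe set (8 probe sets), were set against the median log2 level of 11 lists of cell type markers, which gave 88 relations over 9 ovaries. Of these, 1 passed Benjamini-Hochberg adjustment, that of MT1X (MmugDNA.41838.1.S1_at) with smooth muscle markers. Of the 7 markers listed, 5 were measured: MYH11, CNN1, TAGLN, LMOD1 and SYNPO2, all parts of the contractile apparatus or its regulation.

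Pearson's r was 0.94 (exact permutation p = 3.9e-05, adjusted 0.0034) and Spearman's rho 0.97 (exact permutation p = 0.00017, adjusted 0.015), both two-sided and over 9 ovaries. Without middle-aged ovary 3 and old ovary 3, the farthest from the median of the markers, r was 0.91. It lay between 0.90 and 0.97 when any 1 array was left out, and for deviations from the age group means it was 0.91. The summed intensity of the markers was 4176 to 5393 in young, 6590 to 13561 in middle-aged and 3839 to 19315 in old ovaries. MYH11, the smooth muscle myosin, read 3370, 2057 and 2423 in young ovaries, 3961, 2953 and 5437 in middle-aged ovaries and 1130, 3157 and 8692 in old ovaries. The spread of this MT1X probe set among old ovaries thus followed that of smooth muscle transcripts, with old ovary 1 low and old ovary 3 high. The MT1X probe set MmugDNA.2973.1.S1_at had the reverse order in old ovaries, at 336, 302 and 232. Its r with the same markers was -0.51 (exact permutation p = 0.17, adjusted 0.584). Whether smooth muscle cells carry the MT1X transcript was not tested.

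**Figure D4:**
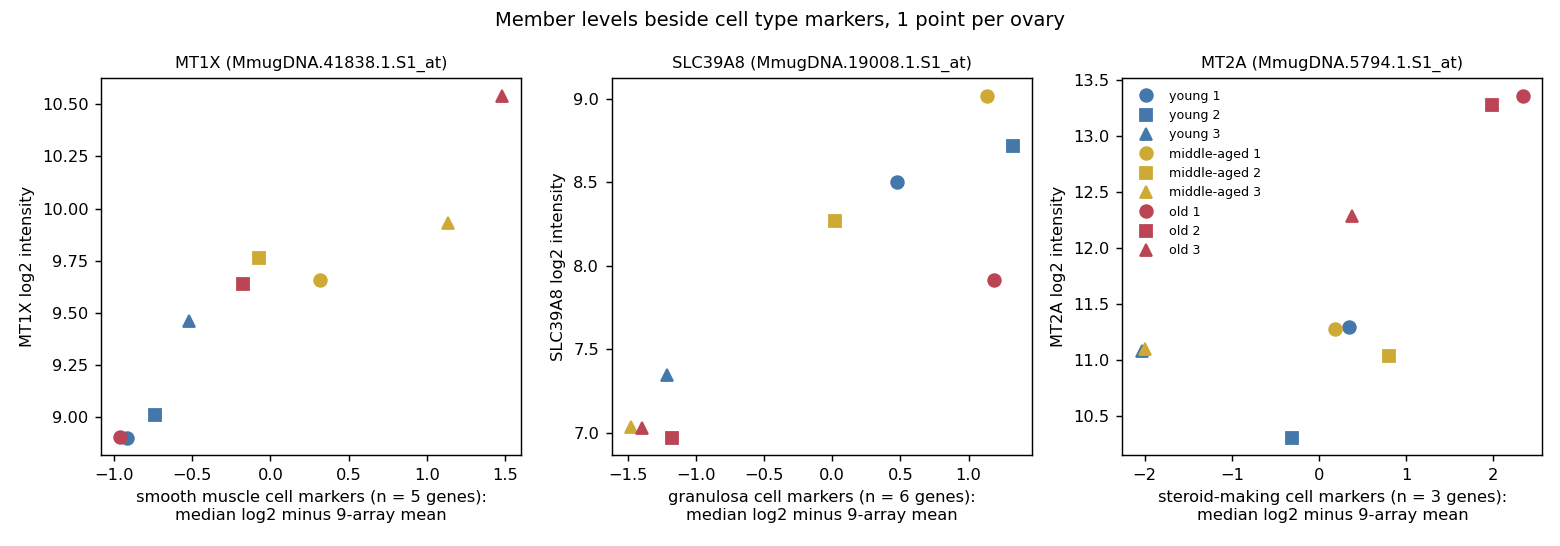
Log2 intensity of MT1X, SLC39A8 and MT2A (vertical axes) against the median of a list of cell type markers in the same ovary, each marker taken as log2 intensity minus its mean over 9 arrays (horizontal axes), with 1 symbol per ovary. MT1X (MmugDNA.41838.1.S1_at) increases with the smooth muscle markers over all 9 ovaries. SLC39A8 lies in 2 clusters along the granulosa markers, and the 3 old ovaries lie highest for MT2A.

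SLC39A8 (MmugDNA.19008.1.S1_at) was set against granulosa cell markers, of which 6 of 8 were measured. The markers' median fell into 2 clusters, of 5 ovaries at 0.02 to 1.32 and 4 ovaries at -1.48 to -1.17 on the log2 scale against the mean of 9 arrays, which are too small for a relation to be tested within them. The pooled relation did not pass adjustment over the 88 (exact permutation, adjusted p = 0.103). The same 5 ovaries had the highest SLC39A8, from 241 to 519, and the other 4 lay between 125 and 163. The marker genes themselves did not move as 1 block, and 3 of the 6 had a positive log2 fold change for old versus young. INHA had 2.67 and INHBA 1.89 (limma adjusted p = 0.259 and 0.278), whereas HSD17B1 had -3.17 (limma adjusted p = 0.279). AMH, a hormone of growing follicles, was 56.4 to 72.3 in old ovaries and 123.3 to 3292 in the others, and CYP19A1, the aromatase, was highest in old ovary 1 at 1389, against 42.2 to 128 in the other 8.

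Of 6 markers of steroid-making cells, 3 were measured, and STAR was the 1 of them that set old ovaries apart as MT2A and MT3 did. STAR, which moves cholesterol into mitochondria, read 2090, 975 and 646 in young ovaries, 2740, 2942 and 663 in middle-aged ovaries and 21679, 12233 and 3448 in old ovaries. The 3 old ovaries ranked in the same order for STAR and MT2A, but STAR ranged from 646 to 2942 among the 6 younger ovaries where MT2A stayed between 1263 and 2511. STAR was not called either (log2 fold change 3.15 for old versus young, limma adjusted p = 0.169).

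The other steroid markers overlapped between ages. CYP17A1, an enzyme of androgen synthesis, read 1250, 621 and 184 in young, 1169, 1341 and 192 in middle-aged and 337, 3053 and 2105 in old ovaries. HSD3B2, which makes progesterone, read 521, 914 and 152 in young, 468, 819 and 129 in middle-aged and 2087, 123.3 and 360 in old ovaries. Old ovary 1 was thus low for the first and highest for the second. The summed intensity, in which STAR weighed most, was 5913 to 24103 in old ovaries and 982 to 5102 in the others, but the markers' median log2 level overlapped, at 0.38 to 2.35 in old and -2.04 to 0.80 in the other ovaries.

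Against that median, MT2A had a Pearson's r of 0.73 (exact permutation p = 0.027, adjusted 0.308) over 9 ovaries. Its Spearman's rho was 0.67 (exact permutation p = 0.059, adjusted 0.346). Without the 2 ovaries farthest from the centre of the markers, young ovary 3 and middle-aged ovary 3, r was 0.89. These 2 were lowest for the markers, but their MT2A, at 2163 and 2200, lay within the range of the other younger ovaries. The higher r without them is thus no check of the relation. For MT3, r was 0.64 (exact permutation p = 0.062, adjusted 0.344), rho 0.77 (exact permutation p = 0.021, adjusted 0.304) and r without the same 2 ovaries 0.73. Neither gene's relation passed adjustment over the 88 relations. Old ovaries were highest for both genes, so each pooled r includes the age difference, and a relation within age groups was not tested. Along the oocyte markers the old ovaries formed a cluster of their own, at -1.99 to -1.56 against 0.11 to 1.51 in the other 6, so no pooled r is given. Those relations did not pass adjustment either (exact permutation, adjusted p = 0.103 for MT2A and 0.133 for MT3).

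Beside the MT1X probe set that was lower in old ovaries, MmugDNA.2973.1.S1_at, stood the oocyte markers, of which 8 of 11 were measured and limma called 4 lower in old than in young ovaries. NLRP5, a maternal-effect gene of the oocyte, was 5.5 to 11.4 in old ovaries and 250 to 1630 in the others. ZP4, a gene of the egg coat, was the exception in direction, with a log2 fold change of 0.83 for old versus young (limma adjusted p = 0.17) and no overlap. The relation of this MT1X probe set with the oocyte markers did not pass adjustment over the 88 (exact permutation, adjusted p = 0.103). The part of oocytes in its signal was not tested.

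Genes whose pattern over the 9 ovaries was most like that of MT1E, by Pearson's r of log2 intensity among 14125 genes, were MIPEP (0.96), ZNF704 (0.94) and UBN2 (0.93). For MT2A they were NFE2L1 (0.97), ZC3H12C (0.96) and KCNK3 (0.95), with ZP4 (0.95) and APOE (0.95) among the first 10. For MT3 they were BPIFB4, MAGEB3 and BLVRB, at 0.94 each. These are descriptions picked as the highest of many over the same 9 arrays, and MT2A and MT3 were chosen for this after their values had been seen.

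Of 21 other zinc transporters, 14 were measured and limma called none in any comparison. At an unadjusted p under 0.05, 2 were higher and 1 lower in old versus young ovaries, against 13.5% of all probe sets in either direction. For old versus middle-aged ovaries 3 were higher and 1 lower, against 7.87%. For middle-aged versus young ovaries 1 was lower, against 3.18%. The median log2 fold change of the 14 was 0.14, 0.17 and -0.03 in that order, against 0.01, 0.02 and -0.01 over all probe sets.

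SLC30A7 (ZnT7), which loads zinc into the Golgi, had the smallest p of them in both comparisons with old ovaries. It read 150, 145 and 166 in young ovaries, 139, 161 and 146 in middle-aged ovaries and 247, 218 and 188 in old ovaries. All old ovaries lay above all others, in the same order as for MT2A. The log2 fold change was 0.49 (SE 0.13, limma adjusted p = 0.177) against young and 0.54 (SE 0.13, limma adjusted p = 0.377) against middle-aged ovaries.

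SLC39A13 (ZIP13), a transporter of the secretory pathway, had 0.35 (limma adjusted p = 0.364) and SLC39A5 (ZIP5) 0.30 (limma adjusted p = 0.39) for old versus young. SLC30A8 (ZnT8), known from insulin granules, had -0.44 (limma adjusted p = 0.235) but was dim, at 7.1 to 12.1. SLC39A6 (ZIP6) had -0.47 (limma adjusted p = 0.513) for old versus middle-aged ovaries. For 2 transporters old ovary 1 alone stood out: SLC39A11 (ZIP11) read 666 there and 114 to 271 in the other 8, and SLC30A4 (ZnT4) read 145 there and 29.7 to 54.5 in the others.

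**Figure D5:**
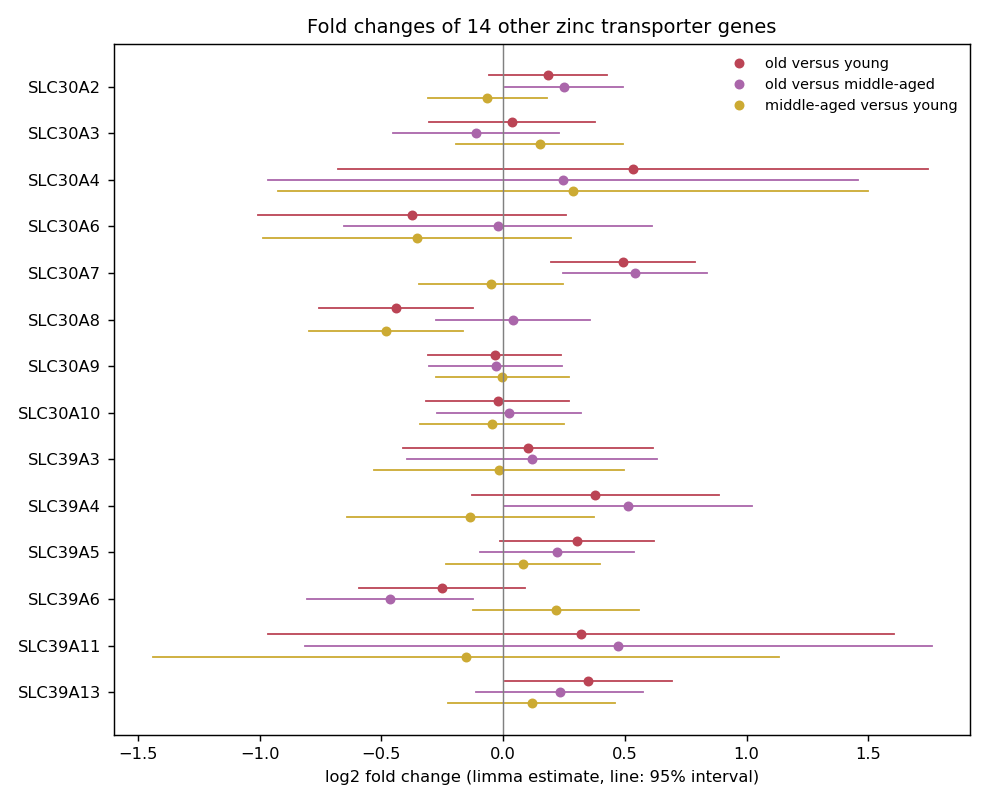
Log2 fold changes from limma (horizontal axis) with 95% intervals as lines for 14 zinc transporter genes outside the chosen set, by comparison, with 3 ovaries per group. SLC30A7 lies at 0.49 against young and 0.54 against middle-aged ovaries, and none of the 14 was called.

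The other metals and known inducers of metallothionein genes were read from fixed lists, and limma called no gene of them in any comparison. For old versus young, 13.5% of all probe sets had an unadjusted p under 0.05 in either direction, the share beside which the counts below stand. For copper, 6 of 11 genes were measured, with a median of 0.51 for old versus young and 1 gene at an unadjusted p under 0.05, COX17, a copper chaperone of the respiratory chain (0.40, limma adjusted p = 0.367). CP, the ferroxidase ceruloplasmin, read 72.0, 72.2 and 68.4 in young, 27.0, 60.5 and 29.9 in middle-aged and 100, 102 and 126 in old ovaries. Old ovaries were highest and middle-aged ovaries lowest for CP, without overlap (1.57 for old versus middle-aged, limma adjusted p = 0.244). For iron, 5 of 10 were measured, with a median of 0.39 for old versus young, and 2 were higher at an unadjusted p under 0.05. These were FTL, the ferritin light chain, with 1.00 and ACO1, the iron-sensing aconitase, with 0.99 (limma adjusted p = 0.229 and 0.251). Of the 5, 4 had a positive fold change, whereas NCOA4 had -0.20 (limma adjusted p = 0.464).

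Of 12 genes of the glucocorticoid response, 10 were measured, with a median of 0.27 for old versus young. At an unadjusted p under 0.05, 3 were higher and 0 lower, against 13.5% of all probe sets in either direction. The 3 were PER1 (0.82), the phosphatase DUSP1 (1.73) and TSC22D3, the leucine zipper GILZ (0.64), with limma adjusted p of 0.2, 0.222 and 0.254. Of the 10, 7 had a positive fold change, with FKBP5 at 0.03. CEBPD (-0.23), PDK4 (-0.27) and NFKBIA (-0.10) were negative. HSD11B1, which makes active glucocorticoid, read 4875 in old ovary 1 and 31.2 to 119 in the other 8. IL6, the cytokine itself, had a log2 fold change of 0.75 for old versus young (limma adjusted p = 0.0616), but its probe set was dim, at 5.5 to 10.5. In the list of 8 genes of its pathway, IL6 included, 2 were higher at an unadjusted p under 0.05. These were IL6 and SOCS3 (0.33, limma adjusted p = 0.335), which was dim too, at 5.4 to 8.2.

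Of 12 genes of the NRF2 and glutathione list, 6 were measured and none had an unadjusted p under 0.05 for old versus young. Their median was -0.08, and 2 of the 6 had a positive fold change. These were SLC7A11, the cystine importer, with 1.37 and SRXN1, sulfiredoxin, with 0.99 (limma adjusted p = 0.386 and 0.379). NFE2L2, the gene of NRF2 itself, had -0.38 (limma adjusted p = 0.373), at 1455 to 1748 in old and 1848 to 2174 in young ovaries. Of 7 enzymes against superoxide and peroxide, 4 were measured, and SOD2, the mitochondrial dismutase, had 0.53 (limma adjusted p = 0.43). Of 10 heat shock genes, 7 were measured, with a median of -0.02, and 1 was lower at an unadjusted p under 0.05, the chaperone HSPH1 (-0.66, limma adjusted p = 0.256).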

How the data were processed

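RNA of 9 ovaries was measured on one-colour Affymetrix rhesus arrays. Per the labels, the authors made the deposited intensity values with RMA, in linear units. The methods of the paper instead describe LOWESS with dye reversal, which belongs to 2-colour slides. Neither detection calls nor scan batches are given in the sources used here, and the number of arrays limits the precision. Of 52865 probe sets, 99 controls were left out, and the deposited values were taken to log2 without further normalization. Symbols came from the array annotation (24956 probe sets with 1 symbol), and a gene was represented by its brightest probe set. RefSeq gave the gene order.

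The log2 values were fitted in limma 3.58.1 (R 4.3.3) by age group, with Benjamini-Hochberg adjustment over 52766 probe sets. The method was tested on simulated data. Named were all members, up to 4 genes per list and comparison by p, and genes of like pattern. Genes named for a single array or beside a marker list, and the neighbours named, were chosen after their values were seen. Members and lists were chosen with earlier results of these data known. Alternatives were 2 normalizations, brighter probe sets, averaged probe sets, 3 variance or weight settings, 2-group fits, a replicate block, no fold minimum, SAM (20 labelings) and arrays left out. The p-values of limma set a difference against the spread between monkeys within age groups, moderated over all probe sets. Those of the relations come from all pairings of the pooled ovaries, so they include the age difference.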

Additional observations from a re-analysis of the deposited data

How the results depend on the processing

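The count of members called was 0 in all 3 comparisons, and leaving out each array in turn gave 0 to 1 for old versus young, the 1 being MT2A without old array 3. It stayed 0 for the other comparisons. Centred arrays, quantile normalization, brighter probe sets alone, averaged probe sets, the variance settings, array weights, fits of 2 groups, no fold minimum and SAM also gave 0. The main fit did not pair monkeys by replicate number. Correlations of deviations between same-numbered arrays were -0.02 to 0.41 and not all above 0.1. In each comparison they were highest for the arrays numbered 3, at 0.25 to 0.41. Whether these arrays share a factor was not tested. With the replicate number as a block, 0 members were called and the adjusted p of MT2A for old versus young was 0.0574. The relation of MT1X (MmugDNA.41838.1.S1_at) with smooth muscle markers was 0.94 with centred and 0.93 with quantile-normalized arrays. With the 3 arrays numbered 3 left out it was 0.95 with an exact permutation p of 0.054 over 6 ovaries. Its alternatives were chosen after seeing the data. With 3 arrays a group and no measure of signal over background, the dim probe sets of SLC39A14 and SLC39A8 give no firm level.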
